A study of Mus musculus with 36 samples.

Results

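The genes described here are 39 mouse genes of the germline and of meiosis. They were chosen by name, as genes with a known part in germ cell identity, in the piRNA pathway or in meiotic chromosomes, and their levels in these samples were not part of the rule. By role they fall into 9 regulators of transcription and RNA in germ cells, 16 genes of the piRNA pathway and transposon control, 10 genes of meiotic chromosome structure and recombination, and 4 other genes expressed in the testis. All 39 were found among the 24284 genes of the FPKM files, and 38 of them were also found among the read-count files. The exception was Piwil4, which has a value in replicate 2 and in the fibroblast libraries only.

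Germline genes are transcribed in primordial germ cells and in the gonads and are kept silent in most somatic cells. Many of them have promoters rich in CG dinucleotides, and the proteins known to silence them include DNA methyltransferases, histone H3 lysine 9 methyltransferases and a Polycomb-type complex with the DNA-binding proteins E2F6, MGA and MAX. In mouse embryonic stem cells (ESC) some germline genes are transcribed at low levels. piRNAs are small RNAs that guide PIWI proteins to transposon transcripts, and many proteins of that pathway sit in a granule of germ cells called nuage. MLL3 and MLL4 are related enzymes that methylate lysine 4 of histone H3, mainly at enhancers.

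RNA was measured in 12 libraries out of the 36 samples of the series. Every cell carried MLL3-/-, controls included. The controls were MLL3-/-;MLL4flox/flox cells, called f/f here, and they were set against MLL3-/-;MLL4-/- cells, called DKO here. Both genotypes were sampled as undifferentiated ESC, which were grown with LIF on irradiated fibroblast feeders, and as embryoid bodies after 4 days of differentiation, with 2 libraries in each of these 4 groups. Both genotypes were also sampled as immortalised embryonic fibroblasts (MEF) and as such fibroblasts at day 20 after infection with lentiviruses for Oct4, Sox, Klf4 plus c-MYC, with 1 library in each of these 4 groups. The labels do not give the number of ESC clones or fibroblast lines, nor whether the replicates are separate cultures. The p-values therefore measure the spread between these samples alone, and that spread may be technical.

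The 2 replicates of the ESC and embryoid body groups are also 2 batches, since replicate 1 was deposited as reads and RPKM per transcript and replicate 2 as FPKM per gene. RPKM and FPKM are reads scaled to gene length and library depth, but the batches were counted differently, so levels were compared within a batch only. The shallowest library was replicate 2 of the f/f bodies at 11366199 reads, and the deepest the fibroblasts labelled DKO at 38264157. Kmt2d, the gene of MLL4, read 13.5 (f/f) and 8.89 (DKO) RPKM in ESC of replicate 1, 18.7 and 10.7 FPKM in ESC of replicate 2, 16.4 and 14.3 RPKM in bodies of replicate 1, then 15.4 and 10.1 FPKM in bodies of replicate 2. The fibroblast libraries read 14.4 FPKM for f/f and 23.5 for the cells labelled DKO, and the day-20 libraries 12.9 and 24.8 FPKM, against the direction of a loss. Which exons were deleted is not given in the sources used here. These values therefore check no genotype label. The markers of pluripotent cells (10 genes) were all at 1 or more in the 8 ESC and body libraries. For the genes described here, 1 library stood apart by high levels: replicate 1 of the DKO bodies, in which their median was 4.36 RPKM and 34 of 38 were at 1 or more. At the low end lay replicate 2 of the f/f bodies, the shallowest library. Their median there was 0.39 FPKM with 10 of 39 at 1 or more, against 1.09 FPKM and 20 of 39 in f/f ESC of that batch.

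Promoter sequences were read because silencing of germline genes has been tied to letters in their promoters. RefSeq windows of 300 bases (build GRCm38.p6, 250 bases before and 50 bases after the annotated start) were at hand for 32 of the 39 genes. Of these 32 genes, 6 have more than 1 window. A gene counted as holding the letters if any of its windows did, and its highest number of CG dinucleotides was taken. By that count 30 of the 32 genes (93.8%) held at least 10 CG dinucleotides, against 45.8% of 27025 genes with a window. The median number was 19.5 against 8. The palindrome CACGTG, the E-box letters that MAX and its partners recognise, was found in 13 of the 32 genes (40.6%). It was found in 8.09% of all genes with a window and in 12.3% of those with at least 10 CG dinucleotides. TCCCGC, letters found in E2F sites and searched on both strands, was in 12 of 32 genes (37.5%). It was in 22.0% of all genes with a window and in 42.7% of those with at least 10 CG dinucleotides. Its longer form TTCCCGC, which contains it, was in 7 genes (21.9%), against 5.29% of all genes with a window and 10.2% of those with at least 10 CG dinucleotides. A match is a run of letters and not a measured binding site, and no match says only that the letters are not in the window.

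Of the 8 genes that passed the test of genotype described further on, 6 have a window. CACGTG was in 1 of these 6 and TCCCGC in 2 of these 6. The 250 bases before the start are printed for these 6, because their transcripts differed most clearly between the genotypes. Capitals mark CACGTG, and TCCCGC on either strand (GCGGGA where it lies on the other strand). The TCCCGC match of Gpat2 lies after the start and is not printed.
Sohlh2, chr3:55181794-55182043 (+ strand): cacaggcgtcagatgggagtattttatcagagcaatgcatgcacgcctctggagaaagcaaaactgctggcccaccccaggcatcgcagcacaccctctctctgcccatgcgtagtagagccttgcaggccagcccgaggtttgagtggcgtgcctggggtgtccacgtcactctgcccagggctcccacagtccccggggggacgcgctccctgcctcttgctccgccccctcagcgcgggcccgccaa
Tex13b, chrX:140813434-140813683 (- strand): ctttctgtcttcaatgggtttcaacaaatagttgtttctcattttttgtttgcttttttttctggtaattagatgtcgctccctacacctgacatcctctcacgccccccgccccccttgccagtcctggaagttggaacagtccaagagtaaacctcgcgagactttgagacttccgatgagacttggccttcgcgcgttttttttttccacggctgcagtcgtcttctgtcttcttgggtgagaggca
Hormad2, chr11:4441083-4441332 (- strand): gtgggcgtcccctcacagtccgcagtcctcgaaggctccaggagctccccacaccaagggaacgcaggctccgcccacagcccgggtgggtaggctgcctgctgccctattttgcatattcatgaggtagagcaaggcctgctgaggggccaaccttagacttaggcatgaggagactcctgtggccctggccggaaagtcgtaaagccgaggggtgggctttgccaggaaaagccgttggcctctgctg
Gpat2, chr2:127424949-127425198 (+ strand): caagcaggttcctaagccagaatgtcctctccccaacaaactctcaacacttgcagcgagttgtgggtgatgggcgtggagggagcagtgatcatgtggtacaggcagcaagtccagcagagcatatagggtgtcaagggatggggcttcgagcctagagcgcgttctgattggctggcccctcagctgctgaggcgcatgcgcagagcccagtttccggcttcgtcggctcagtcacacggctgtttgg
Tex19.1, chr11:121145893-121146142 (+ strand): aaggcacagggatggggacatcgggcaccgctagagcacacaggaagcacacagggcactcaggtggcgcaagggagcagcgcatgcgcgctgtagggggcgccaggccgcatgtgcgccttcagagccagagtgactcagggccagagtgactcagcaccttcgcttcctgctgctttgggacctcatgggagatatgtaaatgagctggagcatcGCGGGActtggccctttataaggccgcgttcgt
Tdrd1, chr19:56825959-56826208 (+ strand): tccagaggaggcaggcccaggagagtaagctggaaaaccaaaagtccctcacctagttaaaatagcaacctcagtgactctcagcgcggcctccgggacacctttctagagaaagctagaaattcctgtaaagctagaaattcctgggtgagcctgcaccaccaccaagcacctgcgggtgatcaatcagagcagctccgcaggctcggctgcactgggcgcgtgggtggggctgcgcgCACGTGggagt

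The promoters of Ddx4, Hormad1 and Sycp3 are printed beside them, as examples of genes that hold both motifs upstream of the start. They were chosen after the matches were seen, and none of these genes passed the test of genotype. A window with both motifs was found for 6 of the 32 genes (18.8%). The share was 2.32% of all genes with a window and 4.79% of those with at least 10 CG dinucleotides. Mael also holds both upstream, and Slc25a31 and Sycp1 hold both in the window, and these are not printed. Hormad1 and Sycp3 each hold CACGTG at 2 places.
Ddx4, chr13:112652311-112652560 (- strand): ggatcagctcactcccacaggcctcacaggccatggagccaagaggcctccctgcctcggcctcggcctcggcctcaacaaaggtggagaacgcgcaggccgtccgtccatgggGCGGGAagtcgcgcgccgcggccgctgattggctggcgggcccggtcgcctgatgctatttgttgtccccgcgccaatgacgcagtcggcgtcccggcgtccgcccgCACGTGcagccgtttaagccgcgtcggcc
Hormad1, chr3:95559427-95559676 (+ strand): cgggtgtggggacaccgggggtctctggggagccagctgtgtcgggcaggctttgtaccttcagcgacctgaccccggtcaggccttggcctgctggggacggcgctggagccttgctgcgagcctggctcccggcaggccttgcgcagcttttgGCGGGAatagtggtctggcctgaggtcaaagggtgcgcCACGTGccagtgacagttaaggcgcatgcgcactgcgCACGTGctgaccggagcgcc
Sycp3, chr10:88459337-88459586 (+ strand): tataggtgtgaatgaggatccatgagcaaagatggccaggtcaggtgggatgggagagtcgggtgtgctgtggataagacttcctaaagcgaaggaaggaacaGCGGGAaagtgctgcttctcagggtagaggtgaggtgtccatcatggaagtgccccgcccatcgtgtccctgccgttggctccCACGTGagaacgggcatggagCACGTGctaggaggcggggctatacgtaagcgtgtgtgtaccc

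The levels of the 39 genes ran from 0 to 109. In f/f ESC 20 of 38 genes were at 1 RPKM or more in replicate 1 and 20 of 39 at 1 FPKM or more in replicate 2, where 51.8% and 53.4% of all genes reached that level. In DKO ESC 27 of 38 and 30 of 39 did so, and in f/f bodies 17 of 38 and 10 of 39. In DKO bodies 34 of 38 and 25 of 39 did so, while the share over all genes stayed between 53.8% and 54.2% in the 4 body libraries. Tex19.1, a repressor of retrotransposons in germ cells and pluripotent cells, had the highest level in every ESC and body library except replicate 2 of the f/f bodies, where Dnd1 was highest at 5.69 FPKM.

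**Figure D1:**
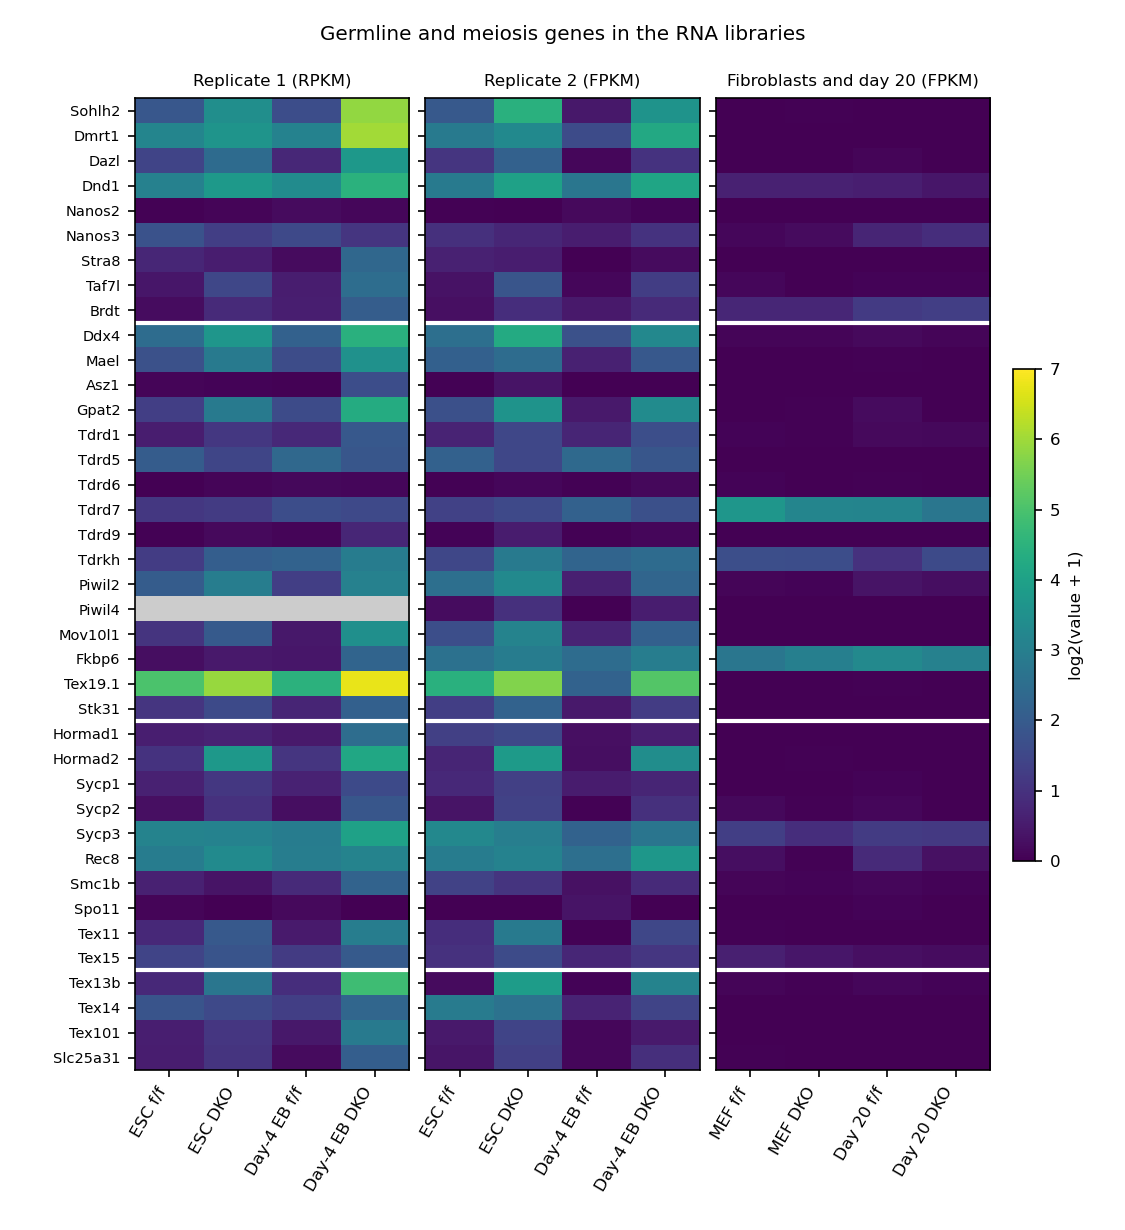
Colour gives log2(value + 1) of each of the 39 genes (rows, in 4 groups by role divided by white lines) in each of the 12 libraries (columns), in RPKM for replicate 1 and FPKM for the rest; grey marks Piwil4, which has no value in replicate 1. DKO ESC and DKO body columns are brighter than the f/f column beside them for most rows, and only Tdrd7, Fkbp6, Tdrkh, Sycp3 and Brdt reach 1 FPKM in any fibroblast or day-20 library.

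For the test of genotype, limma was fitted to log2(value + 1) over the 8 ESC and body libraries, with the batch as a block. Every fold given below is a ratio of value + 1, which understates the change in level of low genes. The test took in genes whose mean was 1 or more in these libraries, 12466 in all and 28 of the 39. The 11 genes that were not tested are Asz1, Sycp1, Sycp2, Tdrd6, Tdrd9, Nanos2, Brdt, Slc25a31, Stra8 and Spo11, which were too low, and Piwil4. A gene can pass this filter through a group in which it is high, so counts among the 28 describe those genes and are not read as support. An increase in bulk RNA can come from more cells that transcribe a gene or from more RNA per cell, and these cannot be told apart here.

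In DKO ESC, 1 of the 28 genes rose and 0 fell at an adjusted p under 0.05 (limma, Benjamini-Hochberg), where 1.57% of the 12466 genes rose and 2.67% fell (4.24% in all). At an unadjusted p under 0.05 there were 11 higher and 1 lower, where 10.5% of all genes were higher and 11.6% lower. edgeR on reads called 1 higher and 1 lower, against 1.85% and 3.17% of all genes, and DESeq2 called 9 higher and 1 lower, against 4.83% and 6.35%. Over the 38 genes with values in both batches and with no filter, 29 were higher in DKO ESC in both batches, 6 were lower in both and 3 were mixed. Over all 22456 genes in both kinds of file, 31.2% were higher in both batches and 24.0% were lower in both. A gene at 0 in both libraries of a batch counts in neither share, whereas at most 3 of the 39 genes were at 0 in any ESC or body library. These shares are therefore not a like background for the 38 genes. The same holds for the shares of all genes higher or lower in both batches that are given below. A difference of at least 1 on the log2 scale in both batches, a rule with no test that was chosen after seeing the data, was reached by 8 of the 28 genes (Sohlh2, Dazl, Taf7l, Ddx4, Gpat2, Hormad2, Tex11 and Tex13b), all higher, where 1.16% of tested genes were higher and 1.97% lower by that rule.

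In DKO bodies, 8 of the 28 genes rose and 0 fell (limma, same threshold), where 0.826% of the 12466 genes rose and 3.61% fell (4.44% in all). At an unadjusted p under 0.05 there were 19 higher and 1 lower, where 7.89% of all genes were higher and 13.3% lower. edgeR called 7 higher and 0 lower, against 0.906% and 2.90% of all genes, and DESeq2 called 19 higher and 0 lower, against 3.73% and 6.51%. The 11 genes that DESeq2 added were Dazl, Ddx4, Fkbp6, Mael, Mov10l1, Piwil2, Stk31, Taf7l, Tex101, Tex11 and Tex15. Of the 38 genes with values in both batches, 31 were higher in DKO bodies in both batches, 4 were lower in both and 3 were mixed, against 26.6% higher and 25.8% lower in both over all genes. By the rule of at least 1 on the log2 scale in both batches, 13 of the 28 were higher and 0 lower, where 1.03% of tested genes were higher and 2.81% lower. The 8 were Sohlh2, Dmrt1 and Dnd1 among 9 regulators, Gpat2, Tex19.1 and Tdrd1 among 16 piRNA and transposon genes, Hormad2 among 10 meiotic chromosome genes, and Tex13b among 4 other testis genes.

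These calls rested on few libraries. Without replicate 1 of the DKO bodies, the library that stood apart, 1 gene was called in bodies (Hormad2), and without replicate 2 of the DKO bodies 15 were called. Without either f/f body library 0 were called, and without either f/f ESC library 2 were called (Dmrt1 and Hormad2). Without either DKO ESC library the count was 8, of which 7 were the same genes, with Ddx4 in place of Tdrd1. In ESC the 1 call, Hormad2, was lost without either f/f ESC library or without replicate 2 of the DKO ESC. With no filter on low values, 1 gene was called in bodies (Hormad2).

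**Figure D2:**
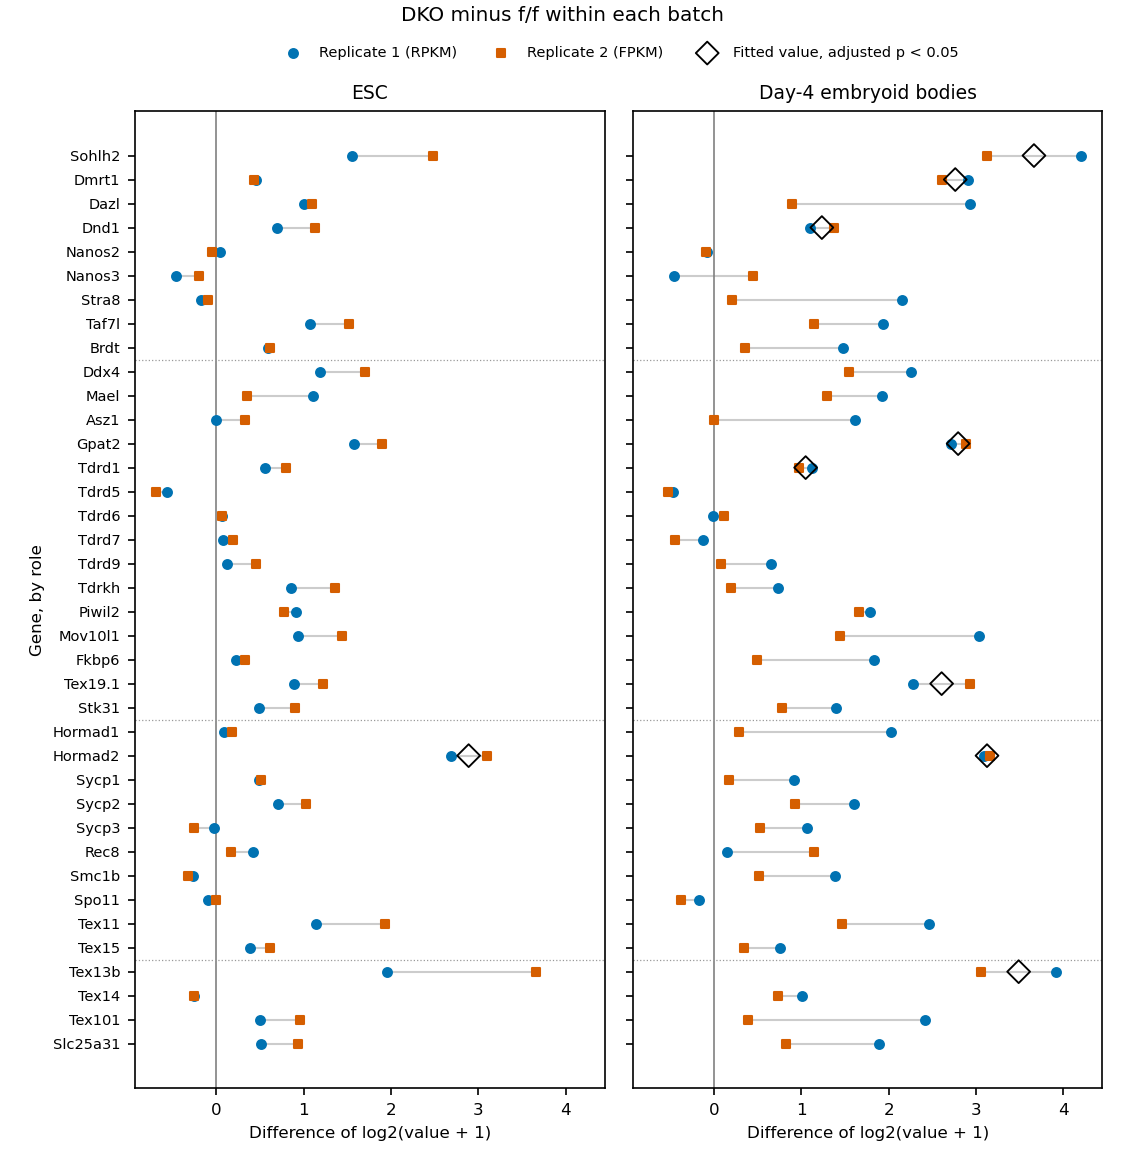
Each point is the difference of log2(value + 1) between DKO and f/f within a batch, in ESC (left) and day-4 embryoid bodies (right), for the 38 genes with values in both batches; diamonds mark fitted values with an adjusted p under 0.05. Points of both batches lie right of 0 for 29 genes in ESC and 31 genes in bodies, and Tdrd5 lies left of 0 in all 4 comparisons.

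Among the regulators, Sohlh2, a basic helix-loop-helix transcription factor of early spermatogonia and oocytes, had the largest fitted increase in bodies. In replicate 1 it stood at 2.73 RPKM (f/f) and 9.99 (DKO) in ESC and at 2.15 and 57.0 in bodies, from 118, 463, 94 and 3096 reads. In replicate 2 it stood at 2.88, 20.7, 0.37 and 11.0 FPKM in the same order. DKO was above f/f at both stages in both batches. The rise in bodies was 3.66 ± 0.71 on the log2 scale (SE, n = 2 per group), 12.7-fold (limma, adjusted p = 0.0461). When the DKO bodies were represented by replicate 2 alone, it was 2.55 and was not called. In ESC the difference was 2.02 ± 0.71 and did not pass (limma, adjusted p = 0.167).

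Dmrt1, a DM-domain transcription factor of the testis that holds germ cells back from meiosis, rose in bodies. It stood at 8.03, 11.4, 7.62 and 63.7 RPKM in replicate 1 and at 6.40, 9.02, 2.03 and 17.6 FPKM in replicate 2 (f/f ESC, DKO ESC, f/f bodies, DKO bodies, the order used from here on). The difference in ESC was 0.44 ± 0.40 (limma, adjusted p = 0.576), and the rise in bodies was 2.76 ± 0.40, 6.78-fold (limma, adjusted p = 0.0229). The difference between these effects was 2.32 ± 0.57, with an unadjusted p of 0.00611 and an adjusted p of 0.188 in limma, and it was the only one of the 28 genes with an unadjusted p under 0.05. DESeq2 called it.

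Dnd1, an RNA-binding protein needed for the survival of primordial germ cells, stood at 7.50, 12.8, 9.30 and 21.0 RPKM and at 6.34, 15.1, 5.69 and 16.3 FPKM. Its rise in bodies was 1.23 ± 0.21, 2.35-fold (limma, adjusted p = 0.0306), and its difference in ESC was 0.91 ± 0.21 (limma, adjusted p = 0.0663). The body libraries of the genotypes lay apart in both batches, by 1.10 and 1.37 on the log2 scale, and replicate 1 of the DKO bodies did not give the larger of these.

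Dazl, an RNA-binding protein that licenses germ cells for gametogenesis, did not pass. It stood at 1.72, 4.46, 0.73 and 12.2 RPKM and at 1.09, 3.49, 0.089 and 1.03 FPKM, so that the difference in bodies was 2.94 in replicate 1 and 0.90 in replicate 2. Taf7l, a germ cell paralogue of a general transcription factor subunit, was higher in DKO at both stages in both batches, with a difference of 1.54 ± 0.36 in bodies (limma, adjusted p = 0.074). Nanos3, an RNA-binding protein of primordial germ cells, was lower in DKO ESC in both batches (2.38 against 1.46 RPKM and 0.95 against 0.70 FPKM) and mixed in bodies. Stra8, which acts at the entry into meiosis, was at 4.10 RPKM in replicate 1 of the DKO bodies and reached 0.67 at most in the other 7 ESC and body libraries. Nanos2, a regulator of male germ cells, stayed at or below 0.15, and the testis bromodomain gene Brdt stayed below 1 in ESC and bodies except at 3.18 RPKM in replicate 1 of the DKO bodies.

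**Figure D3:**
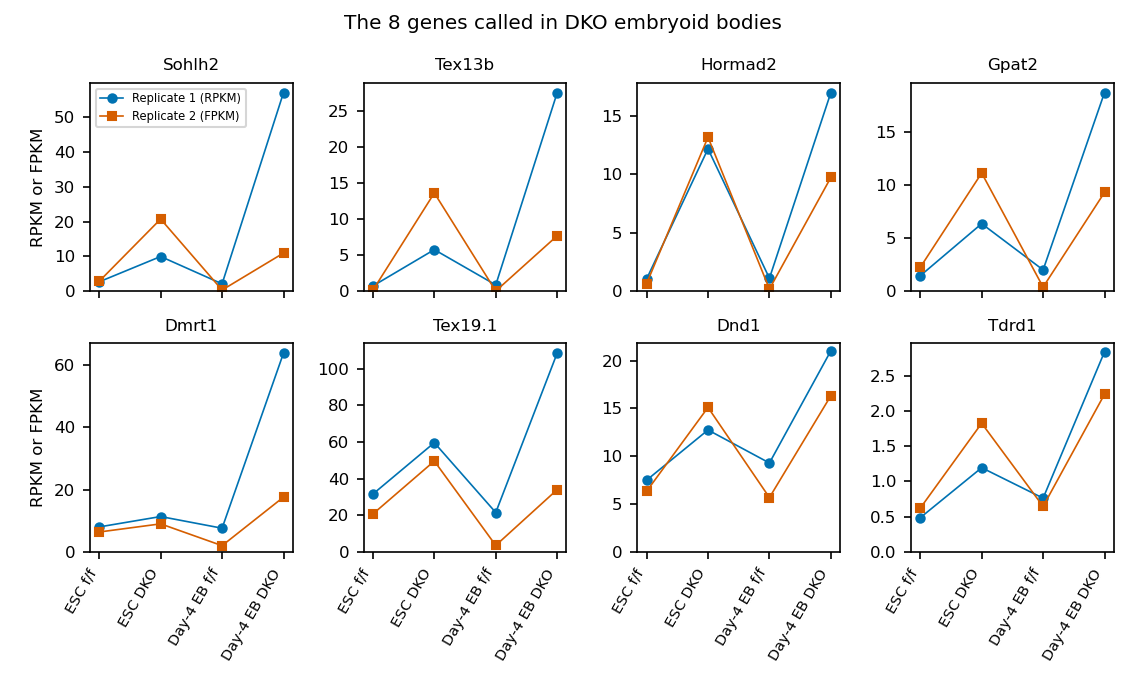
Points give the level of each of the 8 genes called in DKO bodies, in RPKM for replicate 1 and FPKM for replicate 2, in the 4 ESC and body groups, and lines only join libraries of a batch. DKO is above f/f at each stage in each batch for all 8 genes, and within replicate 1 the DKO bodies are highest in every panel.

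In the piRNA pathway, the RNA helicases Ddx4 and Mov10l1 and the PIWI protein Piwil2 were higher in DKO cells without passing the limma test. Ddx4, the mouse Vasa helicase of nuage, stood at 4.59, 11.7, 3.52 and 20.6 RPKM and at 4.91, 18.3, 2.32 and 8.66 FPKM. Its difference was 1.45 ± 0.39 in ESC (limma, adjusted p = 0.0974) and 1.90 ± 0.39 in bodies (limma, adjusted p = 0.0527). The difference of Ddx4 in bodies passed under 11 of the 19 alternatives, among them edgeR, DESeq2 and both other scalings. Piwil2, the PIWI protein of fetal and early postnatal germ cells, stood at 3.14, 6.81, 1.47 and 7.50 RPKM and at 4.85, 9.04, 0.54 and 3.87 FPKM, with a difference of 1.72 ± 0.36 in bodies (limma, adjusted p = 0.0551). Both genes were higher in DKO in all 4 comparisons within a batch. Mov10l1, a helicase that binds piRNA precursors, stood at 1.09, 2.99, 0.36 and 10.1 RPKM and at 2.23, 7.78, 0.63 and 3.43 FPKM, and its difference in bodies was 2.24 ± 0.54 (limma, adjusted p = 0.0778). Piwil4, which works with Piwil2 in fetal germ cells, had values in replicate 2 only, at 0.18, 0.97, 0 and 0.48 FPKM.

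Gpat2, a mitochondrial acyltransferase needed for piRNA formation, rose with a similar size in each batch. It stood at 1.47, 6.38, 2.02 and 18.7 RPKM and at 2.26, 11.2, 0.40 and 9.33 FPKM. The differences in bodies were 2.71 and 2.88 on the log2 scale, and the fitted rise was 2.80 ± 0.47, 6.94-fold (limma, adjusted p = 0.0315). In ESC the difference was 1.74 ± 0.47 (limma, adjusted p = 0.0999).

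Tex19.1 stood at 31.6, 59.6, 21.5 and 109 RPKM and at 20.7, 49.6, 3.59 and 34.0 FPKM. Its rise in bodies was 2.61 ± 0.47, 6.09-fold (limma, adjusted p = 0.0377), and its difference in ESC was 1.06 ± 0.47 (limma, adjusted p = 0.257). The difference in replicate 2 of the bodies was taken against an f/f library in which Tex19.1 was at its lowest.

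Tdrd1, a Tudor-domain scaffold of nuage, was low but differed by nearly the same amount in both batches. It stood at 0.49, 1.20, 0.76 and 2.84 RPKM and at 0.62, 1.83, 0.65 and 2.24 FPKM. The differences in bodies were 1.12 and 0.98, with a fitted rise of 1.05 ± 0.21 (limma, adjusted p = 0.0474). That rise is 2.07-fold in value + 1, and the levels themselves differed by more. This call was lost when any of the 8 libraries was left out.

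Of the other Tudor-domain genes, Tdrd9, Tdrkh and Stk31 were higher in DKO in all 4 comparisons within a batch, as Tdrd1 was, and Tdrd5 was lower in all 4. Tdrd5, a nuage component of spermatocytes and spermatids, stood at 3.12, 1.78, 4.11 and 2.70 RPKM and 3.51, 1.81, 4.28 and 2.67 FPKM. Its difference was -0.63 ± 0.15 in ESC (limma, adjusted p = 0.0729) and -0.50 ± 0.15 in bodies (limma, adjusted p = 0.126), and edgeR and DESeq2 called it lower in ESC. Tdrkh, a mitochondrial partner of PIWI proteins, stood at 1.35, 3.25, 3.58 and 6.64 RPKM and at 1.80, 6.22, 3.78 and 4.46 FPKM. The genotype difference in replicate 2 was 1.37 in ESC and 0.19 in bodies. Tdrd7, which is also known for its work in the lens, stood at 1.21, 1.33, 2.15 and 1.90 RPKM and at 1.55, 1.91, 3.50 and 2.29 FPKM, and Tdrd6 and Tdrd9 reached 0.67 at most in any library.

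Mael, a nuage protein of the piRNA pathway, stood at 2.35, 6.26, 2.08 and 10.7 RPKM and at 3.39, 4.60, 0.57 and 2.83 FPKM, and its difference of 1.61 ± 0.44 in bodies did not pass (limma, adjusted p = 0.105). Fkbp6, a co-chaperone used in piRNA loading, stood at 0.19, 0.40, 0.35 and 3.78 RPKM and at 5.10, 6.67, 4.56 and 6.82 FPKM. The batches differed more for Fkbp6 than the genotypes did in replicate 2, and its level cannot be compared between them. Asz1, another piRNA factor, was at 2.16 RPKM in replicate 1 of the DKO bodies and reached 0.29 at most in the other 7 ESC and body libraries. Stk31, a Tudor-domain gene of the testis, differed by 0.49 and 0.90 in ESC and by 1.40 and 0.78 in bodies and did not pass in limma at either stage, while DESeq2 called it higher in bodies.

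Of the meiotic chromosome genes, Hormad2, which binds chromosome axes that have not synapsed, was called at both stages. It stood at 1.05, 12.2, 1.12 and 17.0 RPKM, from 26, 323, 28 and 528 reads. In replicate 2 it stood at 0.66, 13.2, 0.20 and 9.73 FPKM, from an estimated 19, 381, 3 and 176 reads. DKO libraries lay far above f/f libraries in each of the 4 comparisons, and the differences ran from 2.68 to 3.17 on the log2 scale. The fitted rise was 2.89 ± 0.25 in ESC, 7.42-fold (limma, adjusted p = 0.0116), and 3.13 ± 0.25 in bodies, 8.73-fold (limma, adjusted p = 0.00877). The effects at the 2 stages differed by 0.24 ± 0.36 (limma, adjusted p = 0.829). Leaving out replicate 1 of the DKO bodies gave 2.92 in bodies, and Hormad2 was still called. Leaving out replicate 1 or replicate 2 of the f/f bodies gave 3.38 and 2.87, and Hormad2 was not called in bodies in either case.

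Its relative Hormad1 did not share this pattern. Hormad1 stood at 0.50, 0.60, 0.39 and 4.66 RPKM and at 1.52, 1.86, 0.23 and 0.50 FPKM, so that the difference in bodies was 2.03 in replicate 1 and 0.29 in replicate 2, and 0.14 ± 0.64 in ESC (limma, adjusted p = 0.927). Sycp3, a component of the lateral elements of the synaptonemal complex, was among the most abundant of these genes at 7.84, 7.67, 6.73 and 15.2 RPKM and at 8.55, 7.04, 3.61 and 5.63 FPKM. Its differences were -0.14 ± 0.33 in ESC (limma, adjusted p = 0.848) and 0.80 ± 0.33 in bodies (limma, adjusted p = 0.242). Sycp1 and Sycp2, which also build the synaptonemal complex, were higher in DKO in all 4 comparisons but reached 2.68 at most and were not tested.

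Rec8, the kleisin subunit of meiotic cohesin, stood at 6.63, 9.24, 6.83 and 7.69 RPKM and at 6.61, 7.55, 4.88 and 12.0 FPKM. Its larger difference in bodies came from replicate 2 (1.15, against 0.15 in replicate 1), and the fitted value of 0.65 ± 0.25 did not pass (limma, adjusted p = 0.204). Smc1b, another subunit of meiotic cohesin, was lower in DKO ESC and higher in DKO bodies in both batches. Tex11, an X-linked gene of meiotic crossover formation, stood at 0.75, 2.87, 0.41 and 6.81 RPKM and at 0.90, 6.27, 0.024 and 1.82 FPKM, with differences of 1.54 ± 0.51 in ESC (limma, adjusted p = 0.152) and 1.96 ± 0.51 in bodies (limma, adjusted p = 0.0944). Tex15, which acts in meiotic recombination and transposon silencing, was higher in DKO in all 4 comparisons by 0.35 to 0.76. Spo11, the enzyme that makes meiotic DNA breaks, reached 0.30 at most in any library.

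Among the other testis genes, Tex13b, an X-linked gene of spermatogonia, stood at 0.74, 5.77, 0.89 and 27.5 RPKM and at 0.15, 13.6, 0.042 and 7.69 FPKM. DKO was far above f/f at both stages in both batches. Its rise in bodies was 3.49 ± 0.60, 11.2-fold (limma, adjusted p = 0.0327), and its difference in ESC was 2.81 ± 0.60 (limma, adjusted p = 0.058). The value in replicate 2 of the f/f bodies rested on about 1 read, as did those of Tex11 and Tex101 in that library. Without replicate 1 of the DKO bodies the rise was 2.69 and was not called.

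Tex14, a component of the bridges between germ cells, stood at 2.51, 1.95, 1.46 and 3.95 RPKM and at 6.47, 5.24, 0.61 and 1.69 FPKM, lower in DKO ESC and higher in DKO bodies. Tex101, a surface protein of germ cells, stood at 0.52, 1.15, 0.36 and 6.23 RPKM and at 0.40, 1.72, 0.084 and 0.42 FPKM. Slc25a31, the ADP/ATP carrier of the testis, was higher in DKO in all 4 comparisons, at 3.26 RPKM in replicate 1 of the DKO bodies and at 1.50 or less elsewhere. Tex14 and Tex101 did not pass in limma at either stage, DESeq2 called Tex101 higher in bodies, and Slc25a31 was not tested.

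The size of the genotype difference in bodies depended on the batch. Over the 38 genes the median difference was 1.61 in replicate 1 and 0.76 in replicate 2 on the log2 scale, whereas in ESC it was 0.50 and 0.62. Summed over the genes, the level was 471 RPKM in DKO bodies against 87.1 in f/f bodies in replicate 1, and 176 FPKM against 46.0 in replicate 2. In ESC the sums were 195 against 99.5 RPKM and 242 against 101 FPKM.

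Bodies were next compared with ESC within each genotype. In f/f cells 0 of the 28 genes were called (limma), where 12.0% of the 12466 genes were, 8.13% higher and 3.86% lower. At an unadjusted p under 0.05 there were 5, where 32.0% of all genes were under it. edgeR called 1 of the 28, against 12.2% of all genes, and DESeq2 called 7, against 19.9%. Of 38 genes, 20 were lower in f/f bodies than in f/f ESC in both batches and 7 were higher in both, against 22.2% and 31.5% of all genes. None of the 28 reached 1 on the log2 scale in both batches, where 2.88% of tested genes were higher and 1.40% lower by that much. Tdrd7 came closest to the threshold, at 1.21 RPKM in ESC and 2.15 in bodies and at 1.55 and 3.50 FPKM (0.67 ± 0.17; limma, adjusted p = 0.053). Piwil2 was lower in f/f bodies, at 1.47 against 3.14 RPKM and 0.54 against 4.85 FPKM (-1.34 ± 0.36; limma, adjusted p = 0.0612). Tdrkh was higher in f/f bodies in both batches, at 3.58 against 1.35 RPKM and 3.78 against 1.80 FPKM (0.87 ± 0.29; limma, adjusted p = 0.0975).

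In DKO cells the batches went opposite ways. In replicate 1, 35 of 38 genes were higher in DKO bodies than in DKO ESC, with a median difference of 0.85 on the log2 scale. In replicate 2, 27 of 38 were lower and 10 higher, with a median of -0.40. Only 8 genes were higher in both batches and 0 were lower in both, against 26.0% and 18.7% of all genes. limma called 0 of the 28 genes, where 0.826% of all genes were called, 0.201% higher and 0.626% lower. None reached 1 on the log2 scale in both batches, where 0.265% of tested genes were higher and 1.20% lower by that much. At an unadjusted p under 0.05 there were 3, all higher, where 11.4% of all genes were higher. edgeR called 0 of the 28, against 1.17% of all genes, and DESeq2 called 1, against 7.16%. Dmrt1 was higher in DKO bodies in both batches, by 2.39 and 0.89 (fitted 1.64 ± 0.40; limma, adjusted p = 0.119).

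**Figure D4:**
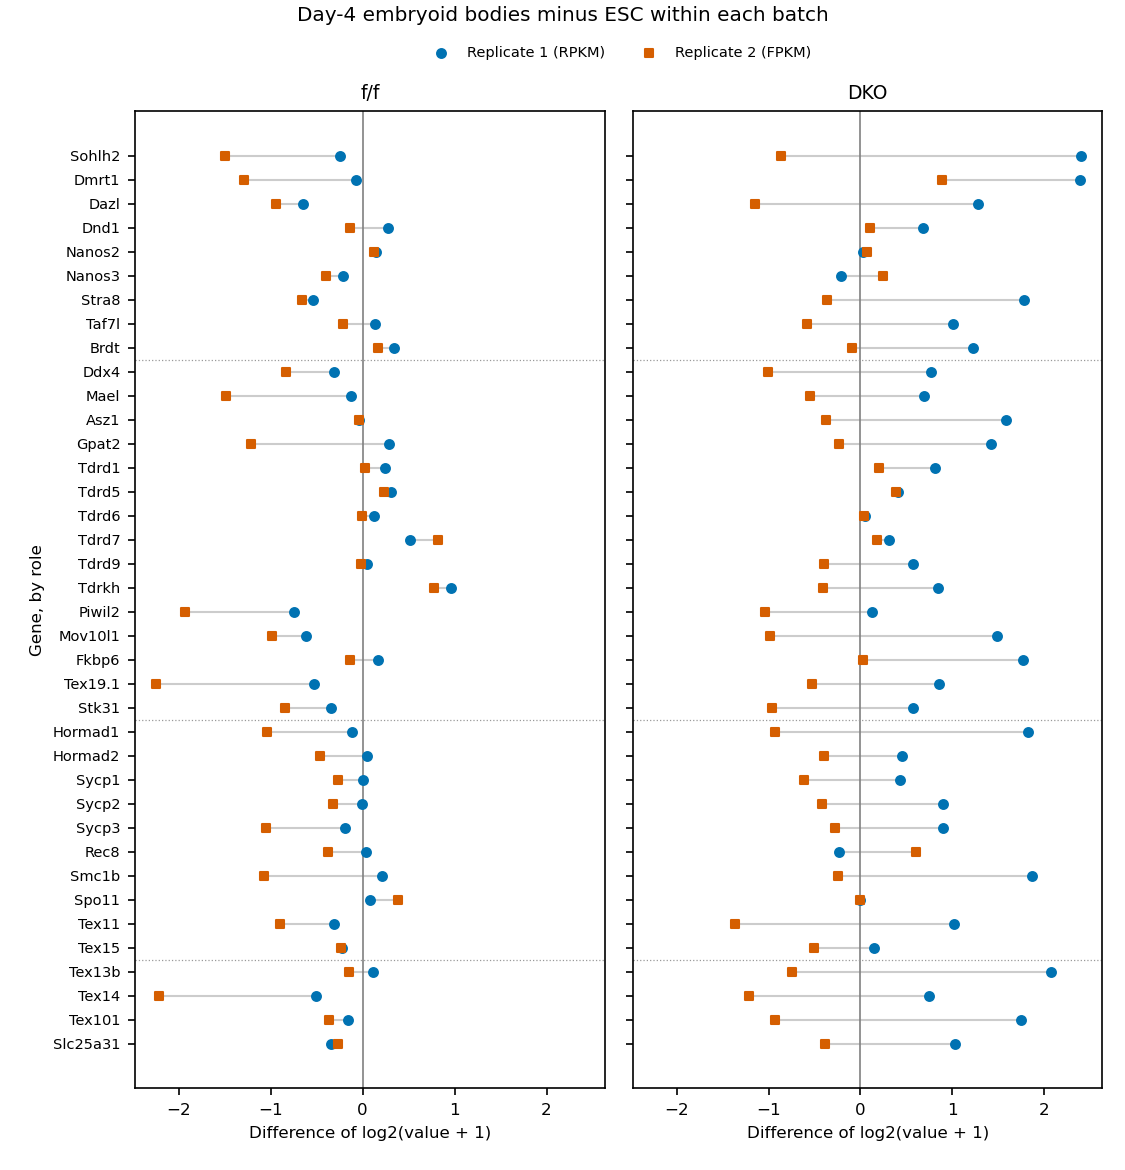
Each point is the difference of log2(value + 1) between day-4 embryoid bodies and ESC within a batch, in f/f (left) and DKO cells (right), for the 38 genes with values in both batches. In DKO cells the replicate 1 points lie right of 0 for 35 genes and the replicate 2 points lie left of 0 for 27 genes, while in f/f cells 20 genes lie left of 0 in both batches.

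The genotype effect was not shown to differ between the stages. The difference of the effects, bodies minus ESC, passed for 0 of the 28 genes and for 0% of the 12466 genes in limma. At an unadjusted p under 0.05 there were 1 of the 28 genes (Dmrt1) and 1704 of all genes (13.7%). edgeR called 0 of the 28 and 0% of all genes, and DESeq2 called 1 (Dmrt1) and 3.38%. The 2 stage comparisons and the 2 genotype comparisons share libraries, so their values are not independent of each other.

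Fibroblasts showed little RNA of these genes. In the 2 MEF and 2 day-20 libraries between 26 and 31 of the 39 genes were below 0.1 FPKM, and between 12 and 19 were at 0. Tdrd7 reached its highest values there, in files normalised separately from those of ESC and bodies, at 11.8 and 8.06 FPKM in MEF (f/f, then the library labelled DKO) and 7.89 and 5.71 FPKM at day 20. Fkbp6 stood at 5.74, 7.09, 8.87 and 7.43 FPKM in the same order, Tdrkh at 2.19, 2.13, 1.01 and 1.97, Sycp3 at 1.45, 0.89, 1.32 and 1.22, and Brdt at 0.67, 0.67, 1.28 and 1.44. Dmrt1 was at 0 in all 4 libraries. Sohlh2, Hormad2 and Tex19.1 reached 0.023 FPKM at most, and Dnd1 was at 0.35 to 0.56 FPKM. Gpat2 stood at 0, 0.020, 0.15 and 0.016 FPKM in MEF and at day 20 (f/f, then DKO, in each), Tdrd1 at 0.051, 0.038, 0.13 and 0.12, and Tex13b at 0.065, 0.025, 0.094 and 0.040. Ddx4 stood at 0.073, 0.073, 0.13 and 0.060 FPKM, Piwil2 at 0.063, 0.043, 0.30 and 0.20, Rec8 at 0.20, 0.025, 0.80 and 0.25, and Dazl at 0, 0, 0.067 and 0.014. Mael, Mov10l1, Tex11, Tex14 and Tex101 reached 0.026 FPKM at most. Apart from Tdrd7, Fkbp6, Tdrkh, Sycp3 and Brdt, none of the 39 genes reached 1 FPKM in a fibroblast or day-20 library.

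With 1 library in each of these groups there is no test and no replicate check. On log2(FPKM + 1), a gene below 1 FPKM in both libraries cannot differ by 1. Only 3 to 5 of the 39 genes reached 1 FPKM in each of these libraries, against 50.6% to 54.2% of all genes. The counts of 0 below were thus nearly fixed by the low levels, and the shares over all genes are not a like background. With a pseudocount of 0.1 the 4 counts were 1, 2, 5 and 4, in the order given below. A difference of at least 1 on the log2 scale was reached by 0 of the 39 genes between the genotypes in MEF, where 2.01% of the 24284 genes were higher and 2.88% lower in the library labelled DKO. At day 20 it was reached by 0 of the 39, where 4.53% were higher and 6.51% lower. Between day 20 and MEF it was reached by 0 of the 39 in f/f, where 4.14% of all genes were higher and 3.05% lower, and by 0 of the 39 in cells labelled DKO, where 2.33% were higher and 1.95% lower. Between day 20 and MEF, Nanos3 stood at 0.66 against 0.095 FPKM in f/f and at 0.88 against 0.14 in cells labelled DKO, and Tdrkh at 1.01 against 2.19 FPKM in f/f. Sohlh2 and Hormad2, whose promoters are printed above, thus stood at 20.7 and 13.2 FPKM in replicate 2 of the DKO ESC and reached 0.022 FPKM at most in fibroblasts.

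Other genes of the same pathways were listed by name. Of 30 further meiotic genes, 17 were tested, 0 were called in ESC and 1 rose in bodies, where 0.826% of all genes rose. That gene was Syce3, a central element protein of the synaptonemal complex, at 1.33, 1.70, 0.84 and 5.11 RPKM and 2.60, 3.36, 0.95 and 3.76 FPKM (1.51 ± 0.28; limma, adjusted p = 0.043). Their median difference was 0.03 in ESC and 0.37 in bodies, where it was 0.02 and -0.01 over all tested genes. Of 14 further piRNA genes, 10 were tested, 1 fell in ESC, where 2.67% of all genes fell, and 0 were called in bodies. Tdrd12, a helicase of the piRNA pathway, fell in DKO ESC, at 21.9, 2.19, 7.87 and 7.22 RPKM and 32.1, 4.84, 3.96 and 5.04 FPKM (-2.68 ± 0.41; limma, adjusted p = 0.0278), opposite in sign to most of the 39 genes.

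Of 17 listed genes of primordial germ cells and of early oocytes or spermatogonia, 10 were tested, 0 rose and 4 fell in DKO ESC, and 0 rose and 2 fell in DKO bodies (limma), where 2.67% and 3.61% of all genes fell. Their median difference was -0.38 in ESC and 0.07 in bodies. Dppa3, a maternal factor also expressed in naive ESC, fell from 54.6 to 2.23 RPKM and from 39.1 to 0.79 FPKM in ESC (-4.29 ± 0.27; limma, adjusted p = 0.0113). Tfap2c, a transcription factor of germ cell specification, fell from 53.8 to 3.27 RPKM and from 49.5 to 3.48 FPKM (-3.59 ± 0.31; limma, adjusted p = 0.0116). Prdm1 and Ifitm3 were the other 2. Other members of the list were higher in DKO bodies in both batches without passing: Prdm14, a regulator of germ cell specification, stood at 7.23 against 2.75 RPKM and 3.61 against 0.44 FPKM (1.41 ± 0.54; limma, adjusted p = 0.206), and Zfp42, a pluripotency gene, at 153 against 62.1 RPKM and 82.3 against 19.7 FPKM (1.65 ± 0.59; limma, adjusted p = 0.184). The marker list of primordial germ cells (8 genes, with Ddx4, Dazl and Nanos3 in common with the 39) summed to 139 RPKM and 117 FPKM in f/f ESC and to 39.5 and 46.5 in DKO ESC, where Dppa3 and Tfap2c fell while Ddx4 and Dazl stood higher. In bodies it summed to 59.0 RPKM and 25.6 FPKM in f/f and to 66.6 and 27.6 in DKO.

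Markers of other cells moved with the body groups as well. The 6 primitive streak and early mesoderm markers summed to 158 RPKM and 116 FPKM in f/f bodies and to 7.52 RPKM and 8.84 FPKM in DKO bodies, and 5 of the 5 tested fell in DKO bodies (limma). The 10 pluripotency markers summed to 1510 RPKM and 1136 FPKM in f/f bodies and to 2090 RPKM and 1215 FPKM in DKO bodies. In limma 1 of the 10, Pou5f1, fell and 0 rose, where 3.61% of all tested genes fell. Nanog, Sox2, Esrrb, Zfp42, Tbx3, Tfcp2l1 and Dppa5a were higher in DKO bodies in both batches without being called. Klf2 was lower in both and Utf1 was mixed. The median difference of the 10 was 0.77, where it was -0.01 over all tested genes. The 10 fibroblast and feeder markers summed to 30.7 RPKM and 81.1 FPKM in f/f bodies and to 19.7 RPKM and 34.2 FPKM in DKO bodies. The part of these shifts in the values of the germline genes was not tested. The 6 spermatid markers summed to 0.62 or less in every library, with Tnp1 at 0 in the 8 ESC and body libraries. Of 10 markers of gonadal somatic cells, Fshr was at 0 in these 8 libraries and Lhcgr at 0 in 7 of them, and the sum lay between 4.71 and 12.3.

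Genes known to silence germline promoters were read in the same libraries. Of 26 listed, all were tested. In DKO ESC 1 rose and 2 fell (limma), where 1.57% of all tested genes rose and 2.67% fell. In DKO bodies 0 were called, where 0.826% of all tested genes rose and 3.61% fell. E2f6 rose in DKO ESC, from 8.11 to 14.5 RPKM and from 9.19 to 14.7 FPKM (0.69 ± 0.13; limma, adjusted p = 0.0446). Setdb1, a histone H3 lysine 9 methyltransferase, fell from 34.3 to 23.1 RPKM and from 38.4 to 23.8 FPKM (-0.61 ± 0.10; limma, adjusted p = 0.0299). Dnmt3l, the cofactor of de novo DNA methylation in germ cells, fell from 141 to 10.1 RPKM and from 89.2 to 5.04 FPKM (-3.79 ± 0.39; limma, adjusted p = 0.0116). In bodies Dnmt3l stood at 45.4 and 16.7 RPKM and at 10.5 and 2.89 FPKM, a difference of -1.47 ± 0.39 that did not pass (limma, adjusted p = 0.0986). Dnmt3b, a DNA methyltransferase, was lower in DKO at both stages in both batches without being called. It stood at 94.0, 20.8, 196 and 24.5 RPKM and at 74.0, 12.4, 282 and 146 FPKM. Dnmt1 was lower in DKO ESC and higher in DKO bodies in both batches. The median difference of the 26 genes was -0.18 in ESC and -0.11 in bodies. Mga, L3mbtl2 and Pcgf6, members of the E2F6 complex, were not called at either stage. Whether these levels bear on the germline genes was not tested.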

How the data were processed

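RNA of 12 libraries was analysed, and 24 further samples (chromatin and inputs) were not. Per the file headers, the authors gave replicate 1 of ESC and bodies as reads counted on each RefSeq transcript, with the count and its RPKM deposited side by side. For the other 8 libraries the headers show FPKM deposited by Entrez gene. Per the labels' protocols, RNA was taken with Trizol and mRNA beads and made into TruSeq libraries. The submitters' processing notes name the build mm9, bedtools 2.16, SICER 1.1 and CASAVA 1.8.2, without their roles. The aligner, the annotation and the strand setting were not given in the sources used here. Genes that overlap, lie antisense or have a close copy are therefore less certain. Every column of per-sample values was used.

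Transcript accessions were looked up in a RefSeq gene table (28436 of 29082 matched), and where a gene had several transcripts only the one with most reads was kept. Reads behind FPKM values were estimated from their steps, with 90.8% to 92.4% of low genes within 0.02 of a whole read. Counting error only is covered by these depths, and reads without molecular identifiers are not independent molecules.

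limma 3.58.1 (R 4.3.3) used log2(value + 1) with a trend of variance on mean (two-sided tests) over the 8 ESC and body libraries, with 4 groups and the batch as a block. A mean of at least 1 was required (12466 genes), p was adjusted by Benjamini-Hochberg over all of them with a threshold of 0.05, and 3 residual and 3.27 prior degrees of freedom remained. Folds are given on that scale and understate changes of low genes. The replicate number also marks the batch: libraries of the same number deviated together from their group means (correlations of 0.864 to 0.954 across genes), and the block follows from that and from the kind of file. MEF and day-20 groups have 1 library and were compared by a difference of at least 1 on the log2 scale. On simulated data for DKO against f/f bodies (12466 genes, 100 changed at each size), 85% of 4-fold and 7% of 2-fold changes were recovered, with 1 false call. The simulated counts had a fixed spread and, before the changes, the same means for all groups of a batch. Genes with few reads were not among those changed. These rates therefore describe that setting and not the genes described here.

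Alternatives were a pseudocount of 0.1, no filter or a mean of at least 0.3, median-of-ratios and quantile scaling, other blocks, fewer groups, summed transcripts, edgeR 4.0.16 and DESeq2 1.42.0 on reads (estimated and rounded in replicate 2), and each library left out. Values in every library, or for fibroblasts their range, are given for genes past the threshold in any contrast or at 5 or more in any library. The 39 genes, the lists and the tests were chosen with earlier results of these data known, so the calls here are not independent of those results. Promoter windows came from RefSeq (GRCm38.p6) and carry that build, not the build of the files.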

Additional observations from a re-analysis of the deposited data

Results flagged for a closer look

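For 5 genes the genotype difference, DKO minus f/f, had opposite signs in ESC and in bodies in both batches. The difference of the effects, bodies minus ESC on the log2 scale as a mean of the batches, was 0.93 for Sycp3, 1.13 for Tex14, 1.24 for Smc1b, 1.31 for Stra8 and -0.42 for Tdrd7. limma's interaction test did not pass for Sycp3 (adjusted p = 0.452), Tex14 (adjusted p = 0.588), Smc1b (adjusted p = 0.54) or Tdrd7 (adjusted p = 0.503). Stra8 was too low to be tested, so its difference was not tested. Sycp3 was at differences of -0.03 and -0.25 in ESC and higher in DKO bodies by 1.07 and 0.52. Tex14 was at differences of -0.25 and -0.26 in ESC and higher in DKO bodies by 1.01 and 0.74. Tdrd7 went the other way, higher in DKO ESC by 0.08 and 0.19 and at differences of -0.12 and -0.45 in bodies.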

How the results depend on the processing

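Over the 5 contrasts, most calls moved with the block, the filter, the tool or a left-out library; the cause was not tested. In DKO against f/f ESC (1 of the genes described here and 529 genes called), the counts were 0 and 0 with no replicate block, 12 and 1428 with a replicate block for each stage, 15 and 1886 with only the groups compared, 2 and 626 in edgeR and 10 and 1387 in DESeq2; no filter gave 207 genes, and at least 1 on the log2 scale in both batches gave 8. In DKO against f/f bodies (8 and 553), they were 0 and 2 with no replicate block, 17 and 1524 with a replicate block for each stage, 19 and 1271 in DESeq2 and 1 and 289 with no filter, and at least 1 in both batches gave 13. In bodies against ESC of f/f (0 and 1495), quantile scaling gave 1, a replicate block for each stage 2, edgeR 1 and DESeq2 7 with 2465 genes, and no replicate block gave 0 genes. In bodies against ESC of DKO (0 and 103), genes called were 1 with no filter, 1 with no replicate block, 280 with a replicate block for each stage (2 of the genes described here), 3 with only the groups compared and 888 in DESeq2 (1). For the difference of the genotype effects (0 and 0), a replicate block for each stage called 2 and 353 and DESeq2 1 and 420.

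With each library left out in turn, the count of the genes described here ran from 0 to 6 in ESC, 0 to 15 in bodies and 0 to 2 between stages in f/f, and stayed at 0 in the other contrasts. Over all genes it ran from 0 to 722 in ESC, 0 to 789 in bodies, 0 to 1882 between stages in f/f and 0 to 111 in DKO. A group left with 1 library was assumed to vary like the others. With a pseudocount of 0.1, the genes past the fold numbered 1 (MEF) and 2 (day 20) between genotypes, and 5 (f/f) and 4 (DKO) between day 20 and MEF; a fold of 0.58 gave 3 and 1 in those latter comparisons. Of the 28 tested genes, 22 kept their direction between genotypes in ESC under every alternative run and 26 in bodies. The exceptions were Dmrt1, Fkbp6, Hormad1, Smc1b, Sycp3 and Tex14 in ESC, each when 1 ESC library was left out, Hormad1 in bodies without replicate 1 of the DKO bodies, and Nanos3 in bodies. Between stages 14 kept it in f/f and 6 in DKO. In the simulated data, differences of 2-fold were rarely recovered with 2 libraries per group. Genes below about 1 RPKM or FPKM rest on few reads.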
